A study of Mus musculus with 36 samples.

Results

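The mRNAs of 9 myosin heavy chains, Myh9, Myh10, Myh14, Myo5a, Myo6, Myo10, Myo18a, Myo9a and Myo9b, were followed in ribosome-protected fragments (RPFs) and RNA of the postnatal mouse brain. They were taken by gene name, 9 of the 16614 genes in the count table. RPFs came from the pellet of a sucrose gradient, which holds compacted ribosome clusters, and from fraction 5/6 of such gradients, which holds lighter ones, in C57BL/6 wild type (WT) mice and in mice lacking Fmr1 (FMR1 KO), the gene of the RNA-binding protein FMRP. RNA-seq was made from whole-brain homogenate. Each of the 36 libraries was a pool of 10 brains taken at postnatal day 5, with 3 libraries per combination of genotype, material and digestion. The digestion was either standard nuclease at 10 mM MgCl2 or low nuclease at 2.5 mM MgCl2. It applies to the RPFs alone, and the RNA-seq libraries are grouped by the protocol in their labels. The loss of Fmr1 is in every cell of the animal, and no transgene or Cre driver was used. The 3 RPF libraries of a group were pooled after linker ligation, so an RPF group and its later library preparation cannot be told apart. The p-values measure the spread between the brain pools.

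A myosin heavy chain holds the motor domain that hydrolyses ATP to pull on actin filaments, a neck bound by light chains or calmodulin, and a tail that sets the task. The class II chains pair through a long coiled coil and assemble into contractile filaments, whereas the unconventional myosins carry cargo, tether membranes or signal. In neurons, nonmuscle myosin II shapes growth cones and dendritic spines, and myosin Va brings endoplasmic reticulum into spines.

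Nonmuscle myosin II is encoded by Myh9 (ENSMUSG00000022443, the heavy chain of myosin IIA; GRCm38 chr15:77760587-77842175, minus strand), Myh10 (ENSMUSG00000020900, myosin IIB; chr11:68691559-68816632, plus strand) and Myh14 (ENSMUSG00000030739, myosin IIC; chr7:44605803-44670843, minus strand). Of the cargo motors, Myo5a (ENSMUSG00000034593; chr9:75071015-75223688, plus strand) walks along actin with vesicles, Myo6 (ENSMUSG00000033577; chr9:80165031-80311729, plus strand) moves the opposite way and serves endocytosis, and Myo10 (ENSMUSG00000022272; chr15:25622525-25813673, plus strand) gathers at the tips of filopodia. Myo18a (ENSMUSG00000000631; chr11:77763246-77865980, plus strand) encodes a chain with little motor activity that links the Golgi to actin. Myo9a (ENSMUSG00000039585; chr9:59750896-59928866, plus strand) and Myo9b (ENSMUSG00000004677; chr8:71272714-71360713, plus strand) carry a domain that switches off small GTPases. All 9 genes are protein coding in GENCODE M21, with a longest coding region of 3.882 kb (Myo6) to 7.893 kb (Myo9a). How reads matching several of these related genes were counted is not given in the sources used here. The Myh9 coding stretch below is shown because it was the one place near which all 6 pellet libraries had an RPF peak, described further on. It covers codons 1501 to 1510 in exon 32 of 41, chr15:77767478-77767507 on the minus strand, read from the transcript sequences of GENCODE M21, with the codons for aspartate and glutamate in capitals.
Myh9 codons 1501 to 1510: cagttccgcacgGAGatgGAGGACctcatg

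The RPF libraries of standard nuclease held 6765065 to 40174168 counts, of which Cdk8 took 36.7% to 63.4%, and levels are therefore CPM, a gene's counts scaled to a common library total, with Cdk8 left out of that total. The low nuclease RPF libraries held 23634940 to 62310787 counts and the standard RNA-seq libraries 112249206 to 147216378. The neuronal markers were the most abundant of the marker lists, with all 6 genes detected and summed levels of 5675 to 11976 CPM in the standard libraries, beside 4.37 to 17.6 CPM for the 4 smooth muscle markers. Fmr1 itself, the deleted gene, was at 64.6 to 67.8 CPM in the WT pellets and at 4.79 to 10.7 CPM in the KO RPF libraries. One library went against its label. The library labelled WT fraction 5/6 replicate 3 held 3.17 CPM of Fmr1, whereas WT fraction 5/6 replicates 1 and 2 held 100.1 and 68.6 CPM. Across 13734 genes, its log2 levels correlated most with KO pellet replicate 3 (r = 0.960, a description across genes) and least with WT fraction 5/6 replicate 2 (r = 0.892). The myosin heavy chains took 0.227% of its counts, against 0.043% and 0.033% in the other WT fraction 5/6 libraries and 0.209%, 0.216% and 0.251% in the WT pellets. The members' main estimates that rest on this library are given with and without it, in part as ranges. Some counts over all genes are given only with it.

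The myosin heavy chains spanned a wide range of levels, and Myh10 and Myo5a led in each of the 5 standard groups that were ranked, WT fraction 5/6 being left out for the library at odds with its label. Compared per kilobase of coding sequence, the WT pellet level was 134 ± 7.90 CPM per kb (mean ± SD, n = 3) for Myh10 and 124 ± 19.6 for Myo5a, whose ranges overlapped. Myo6 followed at 45.8 ± 7.26, Myo18a at 29.9 ± 3.63 and Myh9 at 23.0 ± 2.12 CPM per kb, each with a range apart from the next. Lower still, Myo9a at 15.2 ± 1.20 and Myo10 at 14.2 ± 1.34 CPM per kb overlapped, as did Myh14 at 3.80 ± 0.798 and Myo9b at 3.67 ± 0.493. The KO pellet had the same 7 leading genes, with Myh10 at 139 ± 36.4 CPM per kb and Myo5a at 106 ± 23.6.

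The order changed between materials. In KO fraction 5/6, Myo5a stood at 26.0 ± 5.13 and Myh10 at 24.8 ± 5.06 CPM per kb of coding sequence, and Myh9 was in 7th place at 4.05 ± 0.518, below Myo9a at 9.12 ± 2.73. In RNA, compared per kilobase of exon sequence, Myo5a at 33.8 ± 3.99 and Myh10 at 31.1 ± 5.72 CPM per kb overlapped in WT, and Myo9a at 14.0 ± 0.903 lay above Myh9 at 6.03 ± 0.447. Thus Myo9a exceeded Myh9 in RNA and fraction 5/6, and the reverse held in the WT pellet.

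In FMR1 KO, all 9 myosin heavy chains had higher levels in the pellet than in fraction 5/6, the difference called enrichment here. Myh10 showed it at the highest level. Its pellet level was 981, 588 and 955 CPM in replicates 1, 2 and 3 of FMR1 KO, and its fraction 5/6 level was 130, 134 and 185 CPM. The groups did not overlap, and the lowest pellet library was KO replicate 2. The log2 enrichment of Myh10 was 2.83 ± 0.19 (SE; 95% interval 2.37 to 3.28; adjusted p = 0.000899 from edgeR's quasi-likelihood F test, adjusted over 13320 genes by Benjamini-Hochberg). The same test called 10.1% of all genes higher in the KO pellet and 1.4% lower.

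Myh9, the myosin IIA chain, had the same enrichment from a lower level. In FMR1 KO its level was 135, 103 and 166 CPM in the pellet and 21.9, 22.2 and 27.3 CPM in fraction 5/6, again without overlap. The log2 enrichment was 2.83 ± 0.14 (95% interval 2.48 to 3.17; adjusted p = 0.000890). Myh14, the scarcest of the nonmuscle class II chains, rested on few reads, with 26, 85 and 10 counts in the KO fraction 5/6 libraries. Its levels were 17.2, 13.5 and 20.9 CPM in the KO pellet and 2.68, 6.44 and 2.33 CPM in KO fraction 5/6. Its log2 enrichment of 2.35 ± 0.44 (adjusted p = 0.0190) had the widest interval of the 9, from 1.31 to 3.40.

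The estimates of the cargo motors lay between those of Myh10 and Myo18a. Myo5a stood at 666, 437 and 663 CPM in the KO pellet and at 143, 117 and 174 CPM in KO fraction 5/6, a log2 enrichment of 2.35 ± 0.20 (adjusted p = 0.00163). For Myo6 the KO pellet held 156, 141 and 158 CPM and fraction 5/6 held 28.2, 37.3 and 34.5 CPM, a log2 enrichment of 2.52 ± 0.22 (adjusted p = 0.00172). Neither gene overlapped between the groups. Myo10 was at 92.3, 67.7 and 101 CPM in the KO pellet against 22.1, 29.3 and 28.2 CPM in fraction 5/6, with a log2 enrichment of 2.03 ± 0.17 (adjusted p = 0.00163).

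The Golgi-linked and GTPase-inactivating myosins were enriched least. Myo18a reached 190, 109 and 204 CPM in the KO pellet and 54.8, 56.9 and 81.0 CPM in fraction 5/6, a log2 enrichment of 1.71 ± 0.14 (adjusted p = 0.00149). Myo9b was at 20.9, 12.7 and 21.9 CPM against 8.15, 10.5 and 11.9 CPM, a log2 enrichment of 1.18 ± 0.15 (adjusted p = 0.00514). Both kept their groups apart, Myo9b narrowly. Myo9a was the exception, because its KO fraction 5/6 replicate 3 at 96.9 CPM lay above KO pellet replicate 2 at 76.0 CPM. Its other KO levels were 144 and 119 CPM in the pellet and 58.1 and 61.1 CPM in fraction 5/6, and its log2 enrichment was 1.01 ± 0.14 (95% interval 0.66 to 1.35; adjusted p = 0.00746). The interval of Myh9 therefore lay wholly above those of Myo9a and Myo9b, a difference between genes that was not itself tested. In all, 8 of the 9 had every KO pellet level above every KO fraction 5/6 level, compared with 5.31% of the 16456 protein-coding genes detected in these libraries. The overlap of Myo9a was seen in CPM only. Scaled by trimmed mean of M values (TMM), as in the test, its KO levels were 121 to 173 in the pellet and 73.5 to 76.2 in fraction 5/6, and all 9 were apart.

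**Figure D1:**
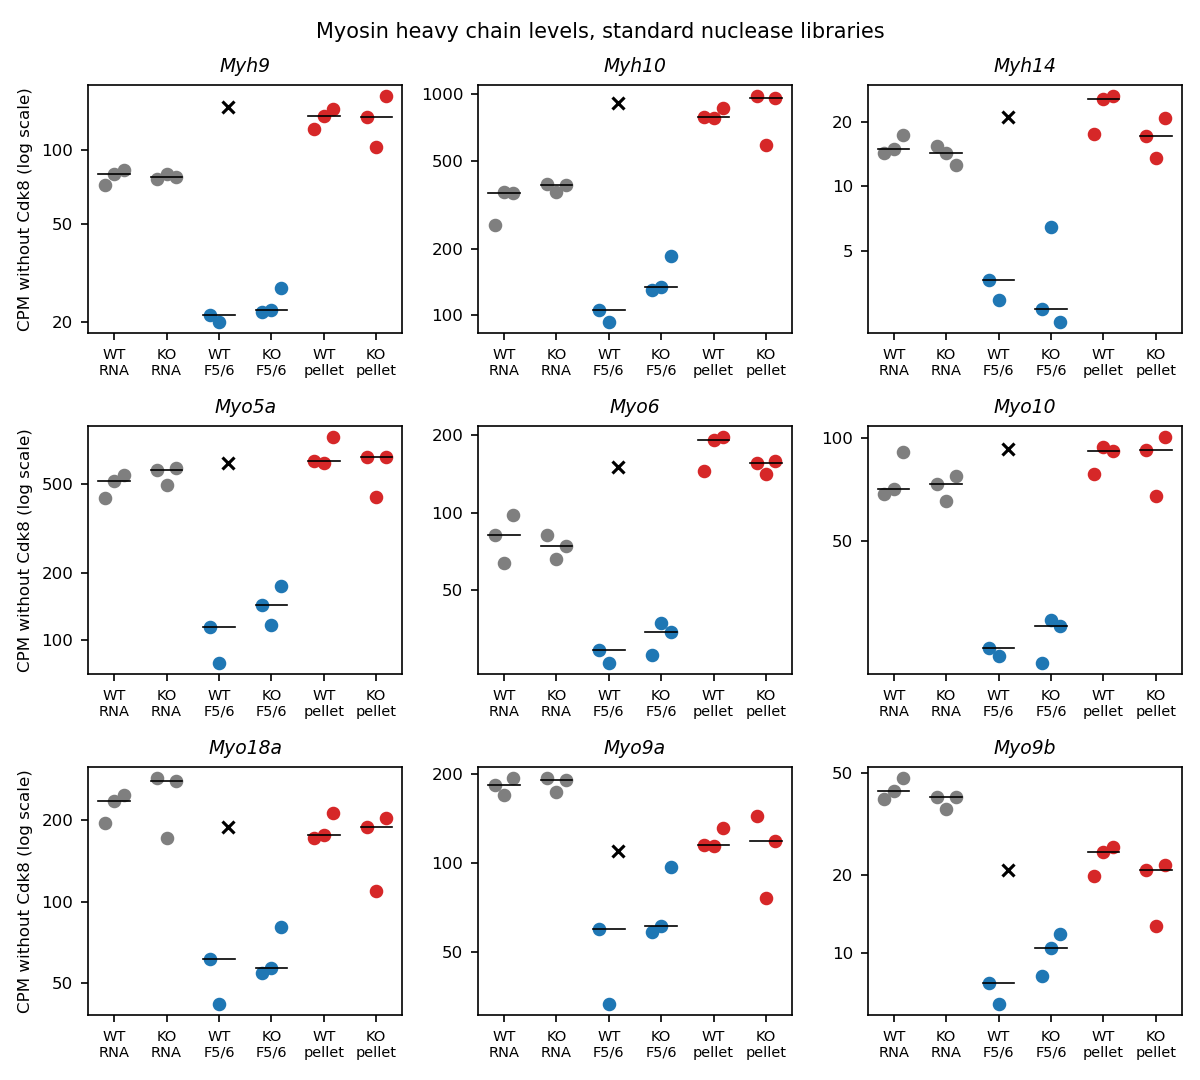
Level of each myosin heavy chain in the 18 standard nuclease libraries, in CPM without Cdk8 on a log scale, with 1 point per library. The line is the median of all libraries of a group, the cross included. The cross is WT fraction 5/6 replicate 3, the library at odds with its label, which lies near the pellet levels for all 9 genes, whereas the other fraction 5/6 libraries (blue) lie below the pellets (red) of their genotype except for Myo9a in FMR1 KO.

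In WT, the outcome depended on the library at odds with its label. For Myh10, WT pellet levels were 784, 776 and 862 CPM, and WT fraction 5/6 levels were 106, 93.7 and 911 CPM. Replicate 3 of fraction 5/6 was thus above all 3 pellets, while replicates 1 and 2 were far below them. With all 6 libraries the log2 enrichment of Myh10 was 1.22 ± 0.86 (adjusted p = 0.646), and none of the 9 myosin heavy chains passed the test, with estimates of 0.90 to 1.45, while 0.0152% of all genes were called higher. The 3 estimates farthest from 0 were those of Myo6, Myo5a and Myh14.

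Without WT fraction 5/6 replicate 3, all 9 passed in WT, in a fit where 7.67% of all genes were called higher. The log2 enrichment was 2.93 ± 0.24 for Myh10 (adjusted p = 0.00697), 2.62 ± 0.23 for Myh9 (adjusted p = 0.00786) and 2.75 ± 0.27 for Myh14 (adjusted p = 0.00881). Among the cargo motors it was 2.80 ± 0.25 for Myo5a, 2.59 ± 0.24 for Myo6 and 1.80 ± 0.21 for Myo10. It was 1.82 ± 0.19 for Myo18a, 1.68 ± 0.21 for Myo9b and 1.36 ± 0.17 for Myo9a (adjusted p = 0.0135), so Myo9a was again the lowest. With the replicate number as a block as well, which leaves 1 residual degree of freedom, none of the 9 was called and the members' median was 2.46. The labels do not say whether libraries of the same number came from one preparation. The WT levels behind this were 122, 137 and 147 CPM in the pellet against 21.3 and 20.0 CPM in fraction 5/6 for Myh9, and 635, 621 and 817 CPM against 114 and 79.2 CPM for Myo5a. For both genes every pellet level was above every fraction 5/6 level that was kept, and the left-out library held 149 CPM of Myh9 and 623 CPM of Myo5a.

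A fit over both genotypes, with genotype as a term, called all 9 myosin heavy chains enriched, with log2 differences of 0.92 to 2.00 and adjusted p of 0.0387 to 0.0426, where 7.46% of all genes were called higher. None of the 9 was called when any one of 10 of the 12 libraries was left out, KO pellet replicate 2 among them, with an adjusted p of 0.0626 for Myh9 without that library. Without WT fraction 5/6 replicate 3 all 9 were called, with log2 differences of 1.16 to 2.87 and adjusted p of 5.53e-07 to 0.000179, where 18% of all genes were called higher. The KO enrichment of all 9 was still called without KO pellet replicate 2, the lowest KO pellet library in CPM for 9 of 9 members though with TMM scaling the highest for Myo6, at log2 values of 1.06 for Myo9a to 2.85 for Myh10. Of the other KO libraries, leaving out pellet replicate 1 or 3 or fraction 5/6 replicate 1 lost the call of Myh14 (adjusted p of 0.0644 to 0.0918), and leaving out fraction 5/6 replicate 3 lost that of Myo9a (adjusted p = 0.0514), with 8 of 9 called in each case. Scaled by library size alone, which moved the median of all genes to −0.33, 6 of 9 were called in FMR1 KO.

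Whether the enrichment itself differed between genotypes was tested as an interaction. None of the 9 passed, with KO minus WT differences of 0.08 to 1.60 with all libraries and of −0.50 to 0.23 without WT fraction 5/6 replicate 3, and 0% of all genes were called in either direction with all libraries. Over all genes, 535 were higher and 231 lower at an unadjusted p under 0.05, and DESeq2 called 41. Without that library the difference was 0.20 for Myh9 (95% interval −0.38 to 0.78), −0.11 for Myh10 (−0.69 to 0.46) and −0.50 for Myo9b (−1.07 to 0.06). The intervals leave room for differences of up to about 1 in log2 for these genes, and for Myh14 the interval ran from −1.73 to 0.92.

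**Figure D2:**
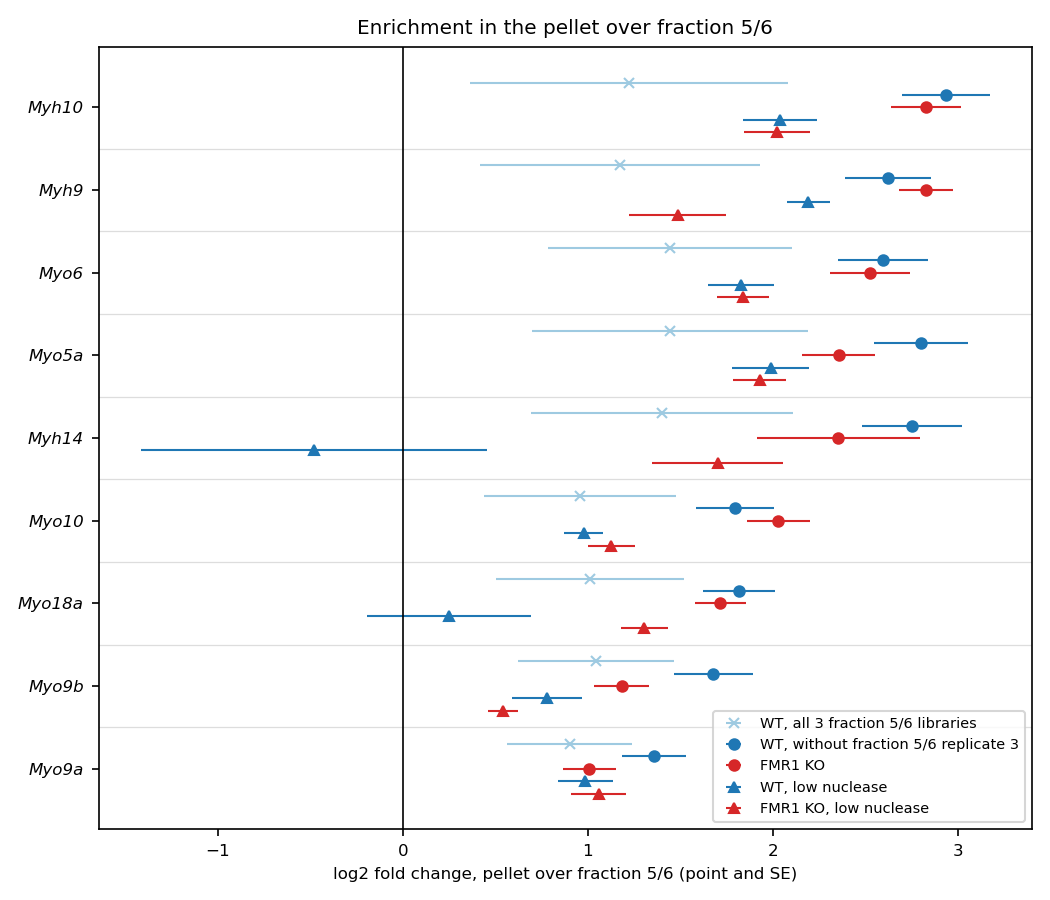
Log2 fold change of pellet over fraction 5/6 for each myosin heavy chain, as estimate and SE, for WT with and without fraction 5/6 replicate 3, FMR1 KO, and both genotypes after low nuclease. The FMR1 KO and reduced WT estimates lie between 1.01 and 2.93, the WT estimates with all libraries lie lower with wide errors, and Myh14 and Myo18a stand near or below 0 only in the WT low nuclease set.

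Long coding regions moved with the enrichment. The median coding length of all genes tested was 1452 bases, and the myosin heavy chains ranged from 3882 to 7893 bases. Of the 945 other genes within that range, 51.7% were called higher in the KO pellet, with a median log2 enrichment of 0.93 and quartiles at 0.42 and 1.43. All 9 myosin heavy chains lay above that median and 7 of 9 above the upper quartile, all but Myo9a and Myo9b. In WT without fraction 5/6 replicate 3, 40.3% of 948 such genes were called higher, with a median of 0.85, and 8 of 9 lay above the upper quartile of 1.43, all but Myo9a. The members' own median was 2.35 in FMR1 KO, compared with 0.01 over all genes tested. The part of coding length in the enrichment was not tested, and the length range was chosen after these values were seen.

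With low nuclease, levels in the pellet were again above those in fraction 5/6 for most myosin heavy chains. Myh10 stood at 519, 396 and 441 CPM in the KO low nuclease pellet and at 132, 115 and 134 CPM in fraction 5/6, and in WT at 488, 421 and 458 CPM against 115, 146 and 96.8 CPM. There was no overlap in either genotype. In WT 7 of 9 passed, against 14.3% of all genes called higher and 8.63% lower. The WT log2 enrichment was 2.19 ± 0.12 for Myh9 (adjusted p = 0.00180), 2.04 ± 0.20 for Myh10 (adjusted p = 0.00613), 1.99 ± 0.21 for Myo5a (adjusted p = 0.00675) and 1.83 ± 0.18 for Myo6 (adjusted p = 0.00613). It was 0.99 ± 0.15 for Myo9a, 0.98 ± 0.11 for Myo10 and 0.78 ± 0.19 for Myo9b (adjusted p = 0.0335). Among other genes of the same coding length, 49.4% of 1044 were called higher, and 4 of 9 members lay above the upper quartile of 1.25 and 7 of 9 above the median of 0.69. Markers of other cell types moved too. The 5 astrocyte markers, none of them at 0, summed to 1142 to 1531 CPM in the WT low nuclease pellets and 505 to 586 CPM in fraction 5/6, with 3 of 5 called higher. Most of that difference was Slc1a2, with means of 803 CPM in the pellet and 98.7 CPM in fraction 5/6. Gfap went the other way, at 134 and 188 CPM. The 5 endothelial and pericyte markers summed to 18.3 to 34.3 CPM against 12.1 to 16.0 CPM, with 2 of 5 called higher, and 2 of 4 microglial markers were higher while their sum was not (154 to 158 CPM against 156 to 342 CPM). In the KO standard set the astrocyte markers summed to 381 to 574 CPM in the pellet and 259.6 to 454 CPM in fraction 5/6, with 2 of 5 called higher. The part of these cells in the results was not tested.

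Myh14 and Myo18a departed from the rest in the WT low nuclease set. Myh14 was at 4.90 and 4.79 CPM in WT fraction 5/6 low nuclease replicates 1 and 2 (119 and 201 counts) but at 56.8 CPM (2506 counts) in replicate 3, above its pellet levels of 15.7, 11.9 and 15.0 CPM. Its log2 enrichment was −0.48 ± 0.93 (adjusted p = 0.729) with replicate 3, 0.52 (adjusted p = 0.655) with the replicate number as a block and 1.62 ± 0.14 (adjusted p = 0.0160) without replicate 3. Myo18a showed the opposite arrangement, with 219 and 221 CPM in fraction 5/6 replicates 1 and 2 and 69.8 CPM in replicate 3, beside 206, 169 and 197 CPM in the pellet. Its log2 enrichment was 0.25 ± 0.44 (adjusted p = 0.698) with all libraries and −0.14 ± 0.12 (adjusted p = 0.439) without replicate 3. In the same 3 libraries the other 7 genes showed no such split, with Myh9 at 26.2, 30.3 and 26.8 CPM and Myo6 at 33.0, 35.1 and 33.4 CPM.

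In FMR1 KO after low nuclease all 9 passed, against 9.3% of all genes called higher and 10.7% lower. The log2 enrichment was 2.02 ± 0.18 for Myh10 (adjusted p = 0.00566), 1.93 ± 0.14 for Myo5a (adjusted p = 0.00413), 1.84 ± 0.14 for Myo6 (adjusted p = 0.00422) and 1.70 ± 0.35 for Myh14 (adjusted p = 0.0279). Myh9 followed at 1.48 ± 0.26, Myo18a at 1.30 ± 0.13, Myo10 at 1.13 ± 0.13, Myo9a at 1.06 ± 0.15 and Myo9b at 0.54 ± 0.08. Without KO fraction 5/6 low nuclease replicate 2, 5 of the 9 were called. Among the 1045 other genes of like coding length, 44% were called higher, and 6 of 9 members lay above their upper quartile of 1.13 and 8 of 9 above their median of 0.69. Red blood cell markers went the other way, with 4 of 4 lower in the KO pellet and sums of 12.4 to 16.9 CPM against 32.1 to 41.8 CPM in fraction 5/6, and 2 of 5 oligodendrocyte lineage markers were lower (116 to 236 CPM against 243 to 305 CPM). No marker of either list was at 0, and their part in the result was not tested. A genotype difference in enrichment was not tested after low nuclease.

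The pellet levels themselves were higher with standard than with low nuclease for part of the group. In WT 7 of 9 rose, where 15% of all genes were higher. Myh10 went from 488, 421 and 458 CPM to 784, 776 and 862 CPM, a log2 difference of 1.36 ± 0.14 (adjusted p = 0.00242), and Myh14 and Myo6 differed by 1.23 ± 0.19 and 1.20 ± 0.22. Myh9 and Myo5a both differed by 0.73, Myo10 by 0.72 and Myo18a by 0.51, while Myo9a and Myo9b, at 0.23 each, did not pass (adjusted p = 0.181 and 0.211). In FMR1 KO 4 of 9 passed, where 7.4% of all genes were higher, and they were Myh10 at 1.37 ± 0.21, Myo6 at 0.97 ± 0.17, Myh9 at 0.81 ± 0.11 and Myo10 at 0.70 ± 0.12. None of the 4 was called without KO low nuclease pellet replicate 2, 1 without KO low nuclease pellet replicate 3 and 1 without KO standard pellet replicate 1. Scaled by library size alone, which moved the median of all genes to −0.57 in WT and −0.52 in FMR1 KO, Myh10, Myh14 and Myo6 were called in WT and none in FMR1 KO, and Myo18a in WT was at −0.03. Markers of other cell types differed between these pellets as well. In WT, 4 of 5 endothelial and pericyte markers were lower with standard nuclease, with sums of 4.51 to 5.20 CPM against 18.3 to 34.3 CPM and none at 0, and the astrocyte sums were 434 to 574 CPM against 1142 to 1531 CPM, with 1 of 5 called in each direction. The oligodendrocyte lineage sums were 100.1 to 136 CPM against 205 to 322 CPM, with 1 of 5 lower, and 1 of 2 choroid plexus markers was lower. In FMR1 KO no marker of these 4 lists was lower and 1 astrocyte marker was higher. The part of these cells in the result was not tested. The preparations also differed in MgCl2, in the temperature and RNase I product of the digestion and in how monosomes were recovered, and these changes cannot be told apart.

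Pellet RPFs were next compared with RNA, the ratio called occupancy. RNA counts cover whole transcripts and RPFs mainly coding regions, so the occupancy of a gene also depends on the coding share of its exons, and the order of the members is a description. In WT, 8 of 9 myosin heavy chains had higher occupancy than the typical gene, where 31.1% of all genes were called higher and 34.2% lower. Myh10 had RNA levels of 256, 362 and 357 CPM in WT, all below its pellet levels, and the log2 occupancy was 2.48 ± 0.19 (adjusted p = 2.99e-05). For Myh9, RNA stood at 71.6, 79.7 and 82.7 CPM and the log2 occupancy was 1.95 ± 0.14 (adjusted p = 1.85e-05). Myo6, with RNA at 82.0, 63.9 and 97.7 CPM, reached 2.29 ± 0.19 (adjusted p = 4.21e-05).

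The other members had lower estimates. In WT occupancy was 1.74 ± 0.18 for Myh14, 1.64 ± 0.20 for Myo5a, 1.35 ± 0.14 for Myo10, 0.88 ± 0.17 for Myo18a and 0.56 ± 0.14 for Myo9a (adjusted p = 0.00834). Myo9b, with RNA at 39.6, 42.6 and 47.9 CPM above all its WT pellet levels of 19.9, 24.6 and 25.8 CPM, did not pass at 0.27 ± 0.14 (adjusted p = 0.131). In FMR1 KO 7 of 9 passed, where 31.8% of all genes were called higher and 35.2% lower. The values were 2.23 ± 0.14 for Myh10, 2.16 ± 0.15 for Myo6, 1.88 ± 0.10 for Myh9, 1.38 ± 0.13 for Myh14, 1.37 ± 0.08 for Myo10 and 1.17 ± 0.13 for Myo5a. Myo9a was at the threshold with 0.36 ± 0.14 (adjusted p = 0.0497), and Myo18a at 0.52 ± 0.20 (adjusted p = 0.0529) and Myo9b at 0.01 ± 0.10 (adjusted p = 0.955) did not pass.

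These occupancies are relative to the bulk of genes, because the counts are scaled by TMM. Scaled by library size alone, the median of all genes moved to −1.25 in WT and −1.16 in FMR1 KO, 5 and 3 members were called higher, and Myo9a and Myo9b were called lower in both genotypes. Myh9, Myh10 and Myo6 were called higher under both scalings in both genotypes. Among other genes of like coding length, 50.7% of 1057 had higher occupancy in WT and 52.3% of 1055 in FMR1 KO, and 5 and 3 members lay above their upper quartiles. No member's occupancy differed between genotypes, with interaction estimates of −0.42 to 0.06 and 0.067% of all genes called, and the intervals ran from −0.92 to 0.44 over the 9 genes. Cell type markers moved in this comparison as well. In each genotype 5 of 6 neuronal markers had higher occupancy, with medians of 1.10 in WT and 0.87 in FMR1 KO, where the sixth was lower, and 4 of 4 red blood cell markers had lower occupancy, with medians of −3.43 and −4.19. The red blood cell markers summed to 5.54 to 14.2 CPM in the WT pellets and 225 to 523 CPM in WT RNA. Smooth muscle markers summed to 12.2 to 15.6 CPM in the WT pellets and 6.27 to 7.22 CPM in WT RNA. For endothelial and pericyte markers the sums were 4.51 to 5.20 CPM and 13.7 to 18.6 CPM. The part of these cells in the result was not tested.

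Fraction 5/6 RPFs showed the reverse relation to RNA. In FMR1 KO all 9 estimates were below 0, from −1.03 for Myo18a to −0.21 for Myo6, and 7 of 9 passed, where 33.1% of all genes were called lower. Myo5a fell by 1.02 ± 0.17 and Myo9b by 1.02 ± 0.13 on the log2 scale, while Myh14 at −0.80 ± 0.39 (adjusted p = 0.108) and Myo6 at −0.21 ± 0.17 (adjusted p = 0.320) did not pass. In WT none passed with all libraries, where 27.6% of all genes were called lower, and the estimates ran from −0.67 to 1.36. Without WT fraction 5/6 replicate 3, 6 of 9 passed, where 32% of all genes were called lower, with Myo9b at −1.36 ± 0.15 (adjusted p = 0.000484) and Myo5a at −1.11 ± 0.17 (adjusted p = 0.00194). Myh10, Myo6 and Myo10 were the members that did not. In KO fraction 5/6 the markers moved too, with 5 of 6 neuronal markers higher than RNA and 1 lower, 4 of 4 red blood cell markers lower (median −3.79), and 3 of 5 oligodendrocyte lineage and 2 of 4 microglial markers lower. Their part in the result was not tested.

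**Figure D3:**
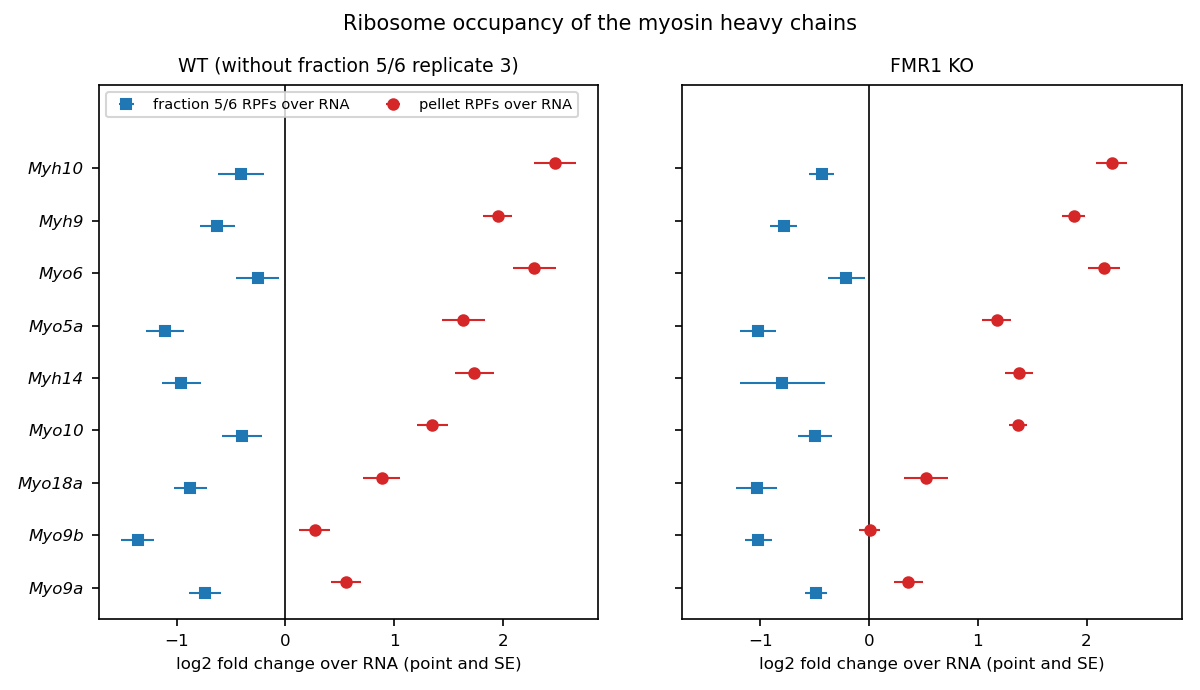
Log2 fold change of pellet RPFs (red circles) and fraction 5/6 RPFs (blue squares) over RNA for each myosin heavy chain, as estimate and SE, in WT without fraction 5/6 replicate 3 and in FMR1 KO. Pellet estimates run from 0.01 to 2.48 and fraction 5/6 estimates from −1.36 to −0.21, so each gene's pellet estimate lies above its fraction 5/6 estimate in both genotypes.

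Between genotypes, the standard nuclease levels were compared in each material. Pellet RPFs of FMR1 KO against WT gave no call among the 9, with log2 differences of −0.41 for Myh14 to 0.06 for Myh10, where 0.0152% of all genes were called in either direction. The interval was −0.34 to 0.46 for Myh10, −0.32 to 0.34 for Myh9 and −0.85 to 0.03 for Myh14. RNA of FMR1 KO against WT gave no call either, where 0.0736% of all genes were called, with differences of −0.12 for Myo9b to 0.25 for Myh10 and intervals within −0.42 to 0.57. In fraction 5/6 the differences ran from −1.60 to −0.17 with all libraries and from −0.23 to 0.26 without WT replicate 3, with no call among the members. There 0% of all genes were called in either direction with all libraries, although 214 were higher and 385 lower at an unadjusted p under 0.05 and DESeq2 called 77.

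None of the partners tested was called higher in the pellet than in fraction 5/6 in FMR1 KO, or in either genotype after low nuclease. The shares beside these lists are over all genes and are not matched to the partners' coding lengths. The part of coding length in these results was not tested. Of 9 light chains and calmodulins, which bind the necks of these motors, none was higher and Myl6 alone was lower in the KO pellet, by 0.55 ± 0.13 on the log2 scale (adjusted p = 0.0398), and the median of the list was −0.41, where 10.1% of all genes were called higher and 1.4% lower. Of 12 tested cargo adaptors and partners, none passed in either direction in the KO comparison, with a median of −0.29. After low nuclease, 7 of 9 light chains and calmodulins and 4 of 13 adaptors were lower in the KO pellet, and 4 of 9 and 3 of 13 in the WT pellet, where 10.7% and 8.63% of all genes were called lower. In pellet occupancy, 5 of the 9 light chains and calmodulins were lower in each genotype and none was higher, where 34.2% of all genes were called lower in WT and 35.2% in FMR1 KO. Of the 13 cargo adaptors and partners, 3 had higher and 7 lower pellet occupancy in WT, and 4 had higher and 6 lower in FMR1 KO, beside 31.1% and 31.8% of all genes called higher.

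In the KO pellet 10.1% of all genes were called higher. Among genes with coding regions as long as those of the 9 myosin heavy chains the share was 51.7%, with a median of 0.93. The coding lengths of the myosin II regulators were not matched. Of these regulators, 3 of 12 were higher in the KO pellet, with a list median of 0.23. They were the kinases Rock1 at 0.46 ± 0.11 (adjusted p = 0.0376), Cdc42bpb at 1.15 ± 0.15 (adjusted p = 0.00626) and Cit at 1.04 ± 0.12 (adjusted p = 0.00343), all of which act on the myosin light chain. Cdc42bpa, at 0.42 ± 0.12 (adjusted p = 0.0655), did not pass, and neither did the kinases Mylk at 0.46, Rock2 at 0.33, Stk24 at 0.14 and Dapk3 at −0.18. Rhoa and the phosphatase genes Ppp1cb, Ppp1r12a and Ppp1r12b did not pass either, with values of −0.23 to 0.08.

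All 14 other unconventional myosins tested had estimates above 0 in the KO pellet. Of these, 6 were called higher and none lower, with a median of 1.28, where 10.1% of all genes were called higher and 51.7% of those with coding regions as long as those of the 9. Among those higher were Myo1e at 1.54 ± 0.15, Myo7a at 1.46 ± 0.16, Myo16 at 1.32 ± 0.14, Myo18b at 1.23 ± 0.30 and Myo1c at 0.97 ± 0.17. Myo18b was scarce there, averaging 3.30 CPM in the KO pellet and 1.62 CPM in KO fraction 5/6. After low nuclease it averaged 2497 CPM in the KO pellet and 1095 CPM in KO fraction 5/6, beside 4.12 and 3.41 CPM in WT. Of the 11 muscle myosin heavy chains, 7 had enough counts to be tested and 3 were higher in the KO pellet, against the same 10.1% and 51.7%. They were Myh11 at 2.56 ± 0.42, Myh8 at 1.97 ± 0.49 and Myh7 at 1.37 ± 0.24. These muscle genes were scarce, with Myh11 averaging 2.36 CPM and Myh8 2.94 CPM in the KO pellet. Smooth muscle markers, Myh11 included, summed to 12.7 to 16.6 CPM in the KO pellets and 11.6 to 14.3 CPM in KO fraction 5/6, and their part in the result was not tested.

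The genes whose levels ran most in parallel with a member were found by correlating log2 CPM over the 18 standard libraries among 6710 genes. For Myh9 they were Herc1, Herc2 and Birc6 (r of 0.993, 0.993 and 0.991) and for Myh10 Prpf8, Map1b and Dync1h1 (0.997, 0.989 and 0.989). Among the members, Myh9 correlated at 0.975 with Myh10, 0.972 with Myo10, 0.968 with Myo6 and 0.961 with Myo5a, and at 0.663 with Myo9a. Without WT fraction 5/6 replicate 3 the same 6 genes stood in the same order, with r of 0.9875 to 0.9963, and Myh9 correlated at 0.6875 with Myo9a. The order was less steady for Myo5a, where Vps13b went from place 2 to place 4 and Hectd4 from 3 to 2. The libraries fall into RNA, fraction 5/6 and pellet, so these values describe shared steps between materials.

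Peaks of RPF coverage were examined in the 12 standard RPF libraries. A peak is a short stretch of a transcript where RPFs pile up, with a height in reads that was not scaled between libraries. Of the 9 transcripts in the count table, 3 had any peak, namely Myh9-201, Myo5a-206 and Myo10-202. Those of Myh10, Myh14, Myo6, Myo18a, Myo9a and Myo9b had none, Myh10 included although its mean level was the highest in the standard pellets. Peaks were listed on other transcripts of Myh10, Myo9a and Myo6, namely Myh10-203, Myo9a-206 and Myo6-205 (at most 3 in a library for Myo6-205). These were not used in the comparisons of peaks. By the methods of the study, the top of a peak had to exceed a fixed multiple of the average over its transcript, but whether the deposited lists were made with that limit is not known. Peaks as low as 1 read were listed on Myo10 in KO pellet replicate 1, where the gene had 1424 counts. An absence of peaks therefore says only that none was listed.

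Myh9 carried 27, 32 and 35 peaks in WT pellets 1, 2 and 3 and 42, 27 and 38 in the KO pellets, so the groups overlapped. Myo5a carried 2, 28 and 4 in WT and 6, 28 and 13 in FMR1 KO, with replicate 2 highest in each. Myo10 carried 14, 3 and 1 in WT and 11, 3 and 9 in FMR1 KO. The few Myo5a peaks in the WT pellet replicate 1 were tall, at 39 and 41 reads, whereas the 28 of replicate 2 had a median height of 16 reads. In fraction 5/6 no peak was listed for the 3 genes in any library but 2. WT fraction 5/6 replicate 3, the library at odds with its label, had 38 for Myh9, 33 for Myo5a and 5 for Myo10, and WT fraction 5/6 replicate 1 had 1 for Myo5a. The fraction 5/6 levels of these genes were also lower, so that a lack of peaks and a lack of reads cannot be told apart.

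**Figure D4:**
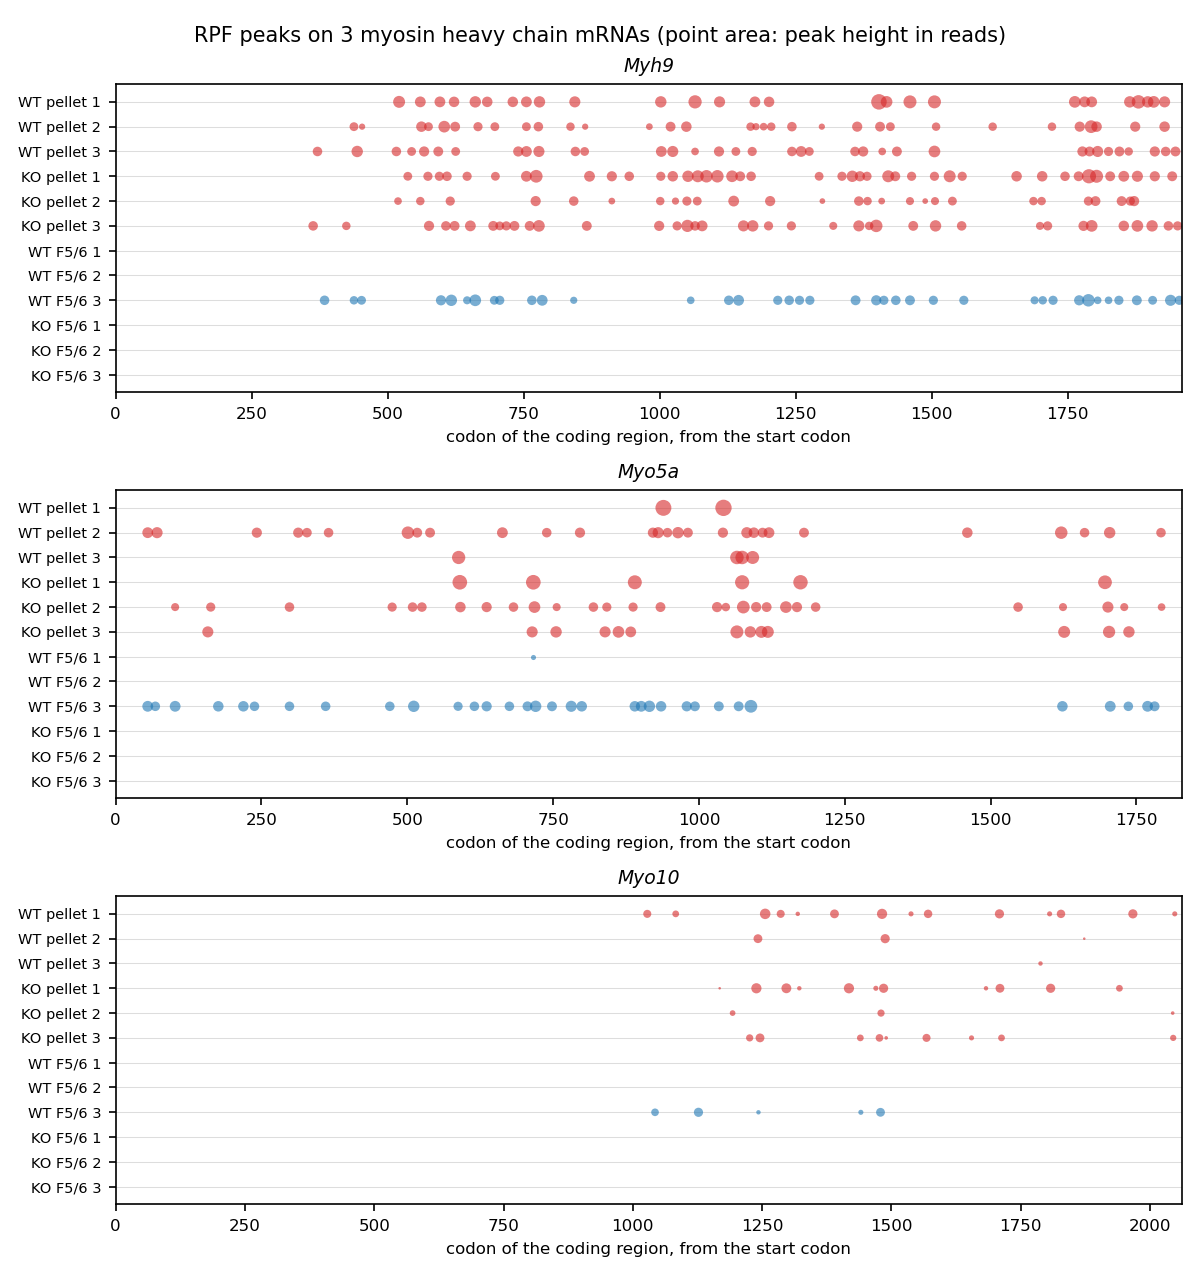
Position of each RPF peak along the coding regions of Myh9, Myo5a and Myo10 in the 12 standard RPF libraries, by codon from the start codon, with point area for peak height in reads. Pellets are red and fraction 5/6 blue. Myh9 peaks begin at codon 363 and Myo10 pellet peaks at codon 1028, while Myo5a peaks begin at codon 55, and the one fraction 5/6 library with many peaks is WT replicate 3.

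All pellet peaks on the 3 genes lay within the coding region. On Myh9 the 201 pellet peaks ran from codon 363 to codon 1952 of 1960, leaving the beginning of the coding region without one. On Myo10 the 41 pellet peaks ran from codon 1028 to 2048 of 2062, all in the later part of the coding region, and on Myo5a the 81 ran from codon 55 to 1793 of 1828. Within 10-codon windows at the peaks, codons for aspartate and glutamate made up 20.995% on Myh9, compared with 20.4% over all windows of the stretch that holds its peaks. The share was 17.7% against 14.1% on Myo5a and 11.7% against 13.7% on Myo10, so the direction differed between genes, and no test was made because peaks of one gene share its sequence. The letters AGGA or TGGA on the transcript strand occurred in 70.6% of 35-nt windows at Myh9 peaks and in 69.0% of all such windows in the stretch, in 51.9% against 41.9% on Myo5a and in 43.9% against 47.1% on Myo10.

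The number of places where peaks recurred depended on how they were matched. Peaks of different libraries were matched where the middles of their intervals lay within 6 nt. A place was counted where the peaks of every library of a set lay within that distance of one peak of the set. Myh9 had 4 such places in the 3 WT pellets and 4 in the 3 KO pellets. Of the KO places, 1, at codon 1506, also had a peak of each WT pellet within 6 nt, but the 6 middles ran from transcript position 4752 to 4761, and the WT peaks there were too far from each other to count as a WT place. No place recurred in all 3 pellets of a genotype on Myo5a or Myo10 within 6 nt. At codon 1506 the heights were 26, 11 and 21 reads in WT and 13, 10 and 20 reads in FMR1 KO, and the nearest peak of WT fraction 5/6 replicate 3 lay 10 nt away. With matching within 3 nt the count over all 6 was 0, and with 12 nt it was 1. Within a genotype, Myh9 had 2 WT and 1 KO places with 3 nt, 6 and 9 with 12 nt, and 16 and 14 when a peak in 2 of 3 libraries was enough. Myo5a had 2 KO places with 12 nt, and 1 WT and 4 KO places by 2 of 3 libraries, where Myo10 had 1 KO place. The windows of 10 codons at the remaining 7 Myh9 places within 6 nt follow, since these recurred in every pellet of a genotype, read from the GENCODE M21 transcript with codons for aspartate and glutamate in capitals. Each lies in Myh9 on chromosome 15, minus strand, in coding exons.
Myh9 codon 624, WT, exon 16, chr15:77781475-77781504: attggcttgGACcaagtggctggaatgtcc
Myh9 codon 755, WT, exon 19, chr15:77777881-77777910: GACagcaacctgtaccgcatcggccagagc
Myh9 codon 778, WT, exon 19, chr15:77777812-77777841: GAAGAGcggGACctgaagatcaccGATgtc
Myh9 codon 1928, WT, exon 41, chr15:77761986-77762015: cgtgggGACctgccatttgtcgtgactcgc
Myh9 codon 1001, FMR1 KO, exon 24, chr15:77774020-77774049: ctgctgGAAGACagagtagctGAAttcact
Myh9 codon 1051, FMR1 KO, exon 25, chr15:77773379-77773408: ttgGAGaagacccgtcgcaagctgGAGgga
Myh9 codon 1366, FMR1 KO, exons 30 and 31: acgctccatgcccaggtgaccGACatgaag

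The 8 windows held between 1 and 4 acidic codons of 10, with 4 at codon 778 and 1 at codons 624, 755, 1366 and 1928. At codon 778 the WT heights were 20, 14 and 19 reads, and at codon 1051 the KO heights were 20, 13 and 23 reads. The median height over all peaks of a library was 14 to 16 reads. Among peaks taller than the median of their library, no Myh9 place recurred in all 3 pellets of either genotype.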

How the data were processed

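Each library's group came from its label. The authors trimmed reads with cutadapt 2.10, used Bowtie2 2.3.5 to take out ribosomal and other non-coding reads, aligned to GRCm38 with STAR 2.7.8a, removed duplicates marked by Picard with SAMtools 1.19.2 and deposited whole-number counts per gene made with featureCounts 2.2.0, without normalization. Removing duplicates can lower the counts of abundant short RPFs. The authors also deposited peak heights, the coverage in reads at RPF peaks called in each library on transcripts, without scaling.

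Cdk8, 27 genes absent from GENCODE M21 and 26 that are not protein coding there were left out, and genes were filtered with filterByExpr, TMM-scaled and tested with the quasi-likelihood test of edgeR 4.0.16 (R 4.3.3, prior count 2, Benjamini-Hochberg adjusted p of 0.05, 16 comparisons, each adjusted over all genes tested). The model was checked on simulated data. Same-numbered libraries were compared by the correlation of their deviations from the group means. Of 31 pairs of groups, only fraction 5/6 and pellet of WT after low nuclease had all 3 over 0.1 (0.188, 0.119 and 0.210). Replicate numbers were thus seen as possible pairs there alone, from the data and not the design. The WT low nuclease results come from a fit without a replicate term, and the replicate block is an alternative to it. The middle of a peak interval stood for its position, which may be 1 nt off. Named genes were all 9 members, and of each list those past the threshold over both genotypes or of highest level; some genes this rule names are not reported here. Members, lists and tests were chosen with earlier results of these data known. Alternatives were DESeq2 1.42.0, other scalings, no filter, Cdk8 kept, a replicate block and libraries left out. CPM is a level relative to the library, so that fewer cells of a type and less RNA per cell cannot be told apart.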

Additional observations from a re-analysis of the deposited data

Results flagged for a closer look

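Peaks on transcripts other than those of the count table stood out for 2 genes. On Myh10-203, 23 peaks were listed in KO pellet replicate 2, compared with 0 to 2 in each of the other 11 libraries. On Myo9a-206, 7 peaks were listed in KO pellet replicate 1 and 6 in WT pellet replicate 1, and none in fraction 5/6. These transcripts were not used in the comparisons of peaks.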

How the results depend on the processing

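Over the alternatives to the enrichment, pellet occupancy, KO fraction 5/6 occupancy and nuclease comparisons, 954 values of single members kept direction and side of the threshold, 168 lost the call, 29 gained it and 19 changed sign. In 3 further comparisons, signs changed without WT fraction 5/6 replicate 3, where members above 0 went from 6 to 0 in WT fraction 5/6 occupancy, from 9 to 2 in the enrichment interaction and from 0 to 4 in fraction 5/6 of FMR1 KO against WT. The causes were not tested. The members' calls rest on 3 libraries per group, and on the depth of the scarce genes. In WT enrichment, members called went from 0 to 9 without the library labelled WT fraction 5/6 replicate 3, and from 0 to 9 over single libraries left out. Over both genotypes 0 to 9 were called with single libraries left out and 0 with library size alone. The KO enrichment count ran from 8 to 9 and the KO low nuclease count from 5 to 9 with single libraries left out. With library size alone, 5 and 3 members had higher pellet occupancy in WT and FMR1 KO, 2 had lower WT fraction 5/6 occupancy (6 without replicate 3, 0 to 6 with single libraries left out), and 3 and 0 were higher in the standard than in the low nuclease pellet of WT and FMR1 KO (0 to 5 in FMR1 KO with single libraries left out).

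Signs changed with library size alone for Myo18a, Myo9a and Myo9b. In WT occupancy they were at −0.28, −0.61 and −0.89, in KO occupancy at −0.56, −0.72 and −1.07, in WT standard against low nuclease at −0.03, −0.30 and −0.30, and in FMR1 KO at −0.23, −0.38 and −0.38. Myo9b in KO occupancy was −0.01 with no filter and −0.10 to 0.06 with single libraries left out. Myo9a in KO standard against low nuclease ran from −0.04 to 0.26. In WT low nuclease enrichment Myh14 ran from −0.95 to 1.62 and Myo18a from −0.14 to 0.52 with single libraries left out.

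In WT low nuclease enrichment, where same-numbered libraries deviated together, adding the replicate block changed no member's call, with Myh14 at 0.52. In the other comparisons the libraries share only a number as far as the labels say, and with the replicate block 1 member was higher in the standard than in the low nuclease KO pellet. A block added after the data were seen, with WT fraction 5/6 replicate 3 left out, called 0 members in WT and 9 over both genotypes. Recurrent Myh9 places over all pellets numbered 0 with matching within 3 nt, 2 when found in 2 of 3 libraries, and 0 among the taller peaks. With TMM-scaled levels, 13 levels moved by less than their SD and 14 by more.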
